A study of Mus musculus with 4 samples.

Results

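Zinc finger gene clusters on mouse chromosomes 2 and 4 were examined in AML c-Kit+ cells with and without overexpressed Suv39h1. The members were all genes of the deposited expression table whose start in GENCODE M21 (mm10 build) lay on chromosome 2 from 174.5 to 178.5 Mb or on chromosome 4 from 145.0 to 147.9 Mb, whatever their biotype. These were 103 of the 23552 genes in the table, 40 on chromosome 2 and 63 on chromosome 4, out of 199 genes annotated in the windows. By biotype, 51 were protein coding, 40 were pseudogenes, 9 were lincRNA genes, 2 were antisense genes and 1 was a processed transcript. Both windows were selected on the difference between SUV-OE and control that is described here, so the values of the members are given as a description. Where a member is said to be called, it passed the rule applied to all genes of the table, and this is no independent test of it.

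Expression was measured by RNA-Seq in c-Kit+ leukemic cells from the bone marrow of moribund C57BL/6 mice with MLL-AF9-induced AML. The control group (2 libraries, replicates 3 and 4) carried control-eGFP, and the SUV-OE group (2 libraries, replicates 2 and 3) carried Suv39h1-eGFP. In both groups, MLL-AF9 leukemia cells had been transduced with the expression virus, sorted for eGFP and passaged through sublethally irradiated recipients, whose own marrow cells can remain beside the transplanted cells. The labels do not say whether the libraries came from separate animals, so the spread between libraries may be in part technical. The unit was FPKM, a read count scaled by exon length and library depth, and the reads recovered from it ranged from 20085719 to 23561089 per library. The deposited FPKM were scaled to 16873770 to 19453058 reads per library, as worked out from the value of 1 read, and depth-scaled reads below use these totals.

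KRAB zinc finger proteins form the largest family of transcription factors in mammals. Their C2H2 zinc fingers read DNA, often in transposable elements, and their KRAB domain recruits Trim28, which in turn brings in the H3K9 methyltransferase Setdb1 and heterochromatin proteins of the HP1 family. The genes stand in clusters that grew by repeated duplication, so neighbours are often near-identical copies and pseudogenes are common among them. The clusters themselves can carry H3K9me3, the mark that Suv39h1 deposits.

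The label was checked on the annotated coding sequences. At least 3 C2H2 finger patterns, counted as codons for paired cysteines and paired histidines at the usual spacing, were found in 18 of 29 protein-coding members on chromosome 2 and in 16 of 22 on chromosome 4. A KRAB codon pattern was found in 10 members on chromosome 2 and in 17 on chromosome 4. Both patterns stood together in 23 of the 51 protein-coding members (45.1%), against 215 of 22527 genes with a coding sequence in the annotation (0.954%). By window they were 7 of 29 on chromosome 2 (24.1%) and 16 of 22 on chromosome 4 (72.7%). The 34 finger genes held 3 to 25 finger patterns, with a median of 13. Finger patterns in any frame were also present in non-coding members, with 11 in Znf41-ps and 10 in Gm13230. Several members at the borders of the windows were no zinc finger genes, among them Mfn2 (mitofusin 2), Tnfrsf1b (a TNF receptor), Fv1 (a retrovirus restriction gene), Miip, Ppp1r3d and Fam217b.

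The promoters show how alike the copies are. RefSeq held promoters, from 250 bases before to 50 bases after a transcript start in GRCm38.p6 (mm10), for 42 of the 103 members. The promoters below belong to members with a large difference and, in each window, to a member with overlapping groups. Capitals mark CCAAT on either strand. Zfp971 had the largest difference among the coding members, Gm14410 and Zfp972 were the coding members of chromosome 2 with the next largest, and Gm14325 was near 0. On chromosome 4, Mfn2 had the largest difference among the coding members, Zfp984 was lower in SUV-OE and Gm13212, at 0.20, had overlapping groups.
Zfp971, chr2:178023034-178023333, plus strand: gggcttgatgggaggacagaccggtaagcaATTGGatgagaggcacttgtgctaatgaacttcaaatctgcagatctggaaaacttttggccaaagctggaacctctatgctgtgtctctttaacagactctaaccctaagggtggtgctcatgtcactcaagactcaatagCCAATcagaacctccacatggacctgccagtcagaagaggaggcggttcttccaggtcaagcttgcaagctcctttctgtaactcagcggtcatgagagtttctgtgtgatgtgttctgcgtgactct
Gm14325, chr2:177840287-177840586, minus strand: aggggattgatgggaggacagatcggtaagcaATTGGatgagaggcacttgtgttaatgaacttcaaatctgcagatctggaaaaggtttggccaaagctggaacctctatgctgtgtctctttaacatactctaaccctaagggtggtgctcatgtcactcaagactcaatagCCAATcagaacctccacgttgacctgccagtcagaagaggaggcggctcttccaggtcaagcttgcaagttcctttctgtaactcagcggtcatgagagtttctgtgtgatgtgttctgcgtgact
Zfp972, chr2:177925601-177925900, minus strand: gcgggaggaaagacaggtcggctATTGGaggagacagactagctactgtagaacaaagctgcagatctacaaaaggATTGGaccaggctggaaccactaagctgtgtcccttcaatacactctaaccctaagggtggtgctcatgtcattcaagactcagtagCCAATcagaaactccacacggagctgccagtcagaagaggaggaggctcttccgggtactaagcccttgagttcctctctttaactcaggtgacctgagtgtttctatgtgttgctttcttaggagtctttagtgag
Gm14410, chr2:177206447-177206746, minus strand: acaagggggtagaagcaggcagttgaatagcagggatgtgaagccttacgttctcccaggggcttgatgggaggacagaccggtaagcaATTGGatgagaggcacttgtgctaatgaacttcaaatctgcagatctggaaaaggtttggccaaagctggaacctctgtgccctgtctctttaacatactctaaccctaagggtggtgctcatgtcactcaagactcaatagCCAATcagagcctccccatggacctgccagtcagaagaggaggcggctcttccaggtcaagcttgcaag
Zfp984, chr4:147809739-147810038, minus strand: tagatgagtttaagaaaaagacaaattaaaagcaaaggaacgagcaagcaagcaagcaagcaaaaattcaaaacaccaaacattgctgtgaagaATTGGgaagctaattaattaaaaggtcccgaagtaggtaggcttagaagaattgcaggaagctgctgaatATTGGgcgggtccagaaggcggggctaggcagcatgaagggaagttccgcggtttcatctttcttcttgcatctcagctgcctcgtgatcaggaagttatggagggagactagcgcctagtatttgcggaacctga
Gm13212, chr4:145584950-145585249, plus strand: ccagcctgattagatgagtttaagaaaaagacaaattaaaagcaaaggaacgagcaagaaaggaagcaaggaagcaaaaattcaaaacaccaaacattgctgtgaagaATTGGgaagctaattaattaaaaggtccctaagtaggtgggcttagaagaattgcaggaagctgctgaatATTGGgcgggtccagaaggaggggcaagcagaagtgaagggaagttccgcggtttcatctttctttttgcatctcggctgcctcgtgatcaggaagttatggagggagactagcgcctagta
Mfn2, chr4:147904612-147904911, minus strand: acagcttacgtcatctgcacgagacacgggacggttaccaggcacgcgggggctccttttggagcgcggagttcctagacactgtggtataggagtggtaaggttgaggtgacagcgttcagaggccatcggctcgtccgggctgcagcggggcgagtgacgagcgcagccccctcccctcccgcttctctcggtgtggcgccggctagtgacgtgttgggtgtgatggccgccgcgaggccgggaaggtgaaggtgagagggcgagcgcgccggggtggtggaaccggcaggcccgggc
Gm26869, Gm13230, Platr16 and Zfp992 were not matched.

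CCAAT on either strand was present in 14 of 14 promoters of finger genes on chromosome 2 and in 11 of 13 on chromosome 4, against 37.4% of all 32851 promoters. In Zfp971 it began 78 bases before the start, in Gm14325 76 bases and in Zfp972 87 bases. GGGCGG on either strand was in 0 of 14 promoters on chromosome 2 and in 9 of 13 on chromosome 4, against 35.7% of all promoters. The 13 promoters on chromosome 4 belong to 11 genes, since Zfp982 has several. TATAAA on either strand was in none of these 27 promoters, against 13.6% of all. On the opposite strand CCAAT reads ATTGG, whose last letters can be shared with the GGGCGG motif, as in the promoters of Zfp984 and Gm13212 above, and a match is a description of the letters alone. The median number of CG dinucleotides was 3.5 per promoter in the finger genes on chromosome 2 and 5 in those on chromosome 4, against 7 over all promoters.

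The 2 windows differed as sequence families. Among promoters of finger genes, the median identity of a pair was 80% within chromosome 2 (91 pairs) and 68.6% within chromosome 4 (55 pairs), against 46.2% between the windows (154 pairs). These values are for aligned columns of whole 300-base windows, so promoters whose annotated starts are offset score lower. Zfp982 has several promoters and entered the pairs through the first, which was 43.0% to 49.1% identical to the others of chromosome 4. The promoter of Gm14325 was 95.4% identical to that of Zfp971, the highest among the other 13.

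Before any fold change, the targeted gene was examined. Suv39h1, the H3K9 methyltransferase that was overexpressed, was at an FPKM of 12.4 in both controls and reached 75.3 and 81.2 with SUV-OE, so the libraries matched their labels. Differences are given as log2 fold changes of SUV-OE over control on the log2(FPKM + 1) scale, with the standard error from limma, and this scale understates the change of genes with low expression. Of the 103 members, 38 had a mean FPKM of at least 0.5 and entered the fit, 12 on chromosome 2 and 26 on chromosome 4. Of these 38, 7 passed this filter through the SUV-OE libraries alone and 1 through the control libraries alone. The 7 were Gm26869, Gm13230, Platr16, Gm13146, Gm13163, Gm13156 and Zfp972.

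Most of the difference sat in a few genes. Calls required a limma adjusted p-value under 0.05 together with a log2 fold change of 1 or more in size. Under this rule 5 of 38 members (Gm26869, Gm13230, Zfp971, Platr16 and Gm13241) were called higher in SUV-OE, where 0.815% of all 13736 tested genes were called higher. In the other direction 0 of 38 members were called by limma, where 0.408% of all tested genes were called lower and the unadjusted p-value was under 0.05 in 2842 genes. In 17 members both SUV-OE libraries exceeded both controls, where 25.4% of all tested genes did so. They lay below both control libraries in 9 members, where 28.4% of all tested genes did so. In bulk RNA, fewer cells of a type and less RNA per cell cannot be told apart. Since the windows were selected on this contrast, nothing is read from these counts. Without any 1 of the 4 libraries, control replicate 3, control replicate 4, SUV-OE replicate 2 or SUV-OE replicate 3, limma called 0 members and 0 genes of the table, and the unadjusted p-value was under 0.05 in 1166 to 3877 genes.

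**Figure D1:**
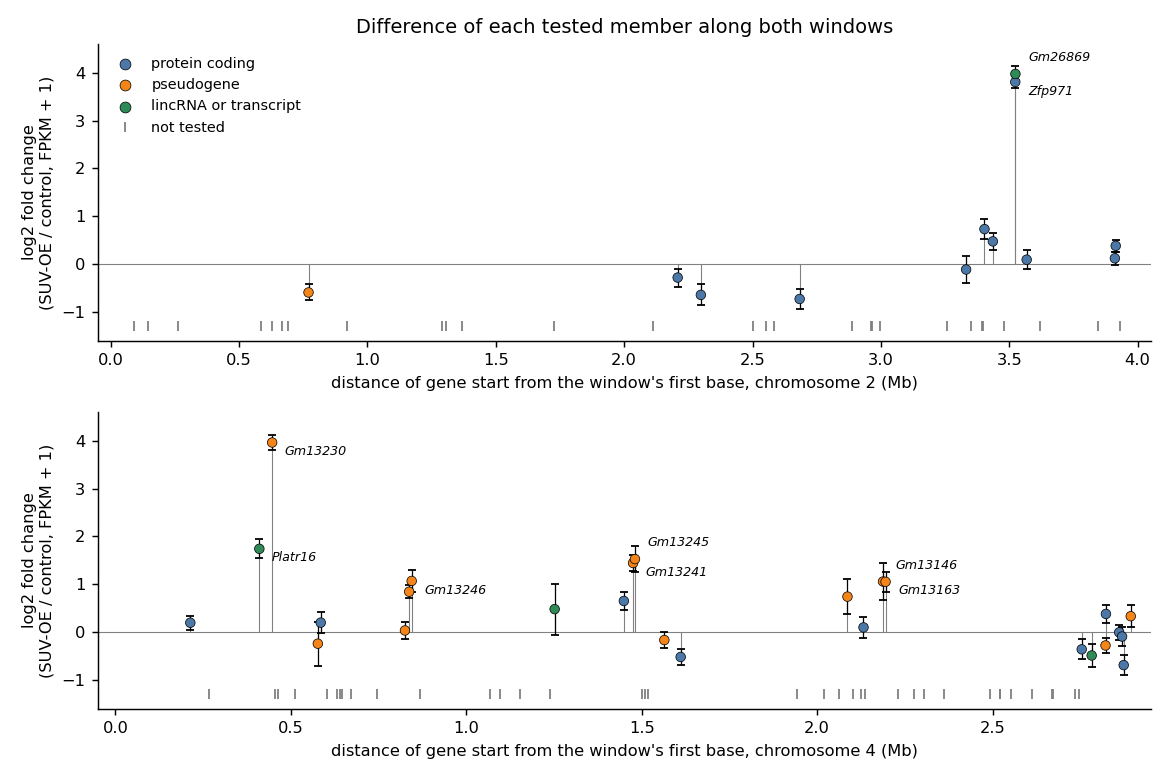
Log2 fold change of each tested member (SUV-OE over control, FPKM + 1) against the distance of its start from the first base of its window, in Mb, for chromosome 2 (top, 12 members) and chromosome 4 (bottom, 26 members). Bars are standard errors from limma, colours give the biotype and grey ticks mark the 65 members not tested. Zfp971 and Gm26869 stand alone on chromosome 2 at 3.81 and 3.97, while on chromosome 4 the higher values fall in Gm13230 with Platr16 and in 3 groups of pseudogenes.

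On chromosome 2 a single locus stood far above its neighbours. Zfp971 (chr2:178023284-178034022, plus strand), a KRAB zinc finger gene with 12 finger patterns, had an FPKM of 4.75 and 5.39 in control replicates 3 and 4 and of 81.4 and 86.2 in SUV-OE replicates 2 and 3. The groups were far apart and the libraries of a group were close to each other. Its log2 fold change was 3.81 (standard error 0.12), and the depth-scaled reads were 16.6 times those of control (95% counting interval 15.0 to 18.4). Without each library in turn the log2 fold change of Zfp971 ranged from 3.73 to 3.88. Zfp971 took 12.8% to 14.0% of the reads on all chromosome 2 members in control and 51.8% to 56.9% in SUV-OE.

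The lincRNA gene Gm26869 (chr2:178023808-178028736, minus strand) lies inside Zfp971 on the opposite strand, with its 2 exons in the first intron of Zfp971. Its FPKM was 0.379 and 0.421 in control replicates 3 and 4 and 24.0 and 18.4 in SUV-OE replicates 2 and 3. The log2 fold change was 3.97 (standard error 0.17), and the depth-scaled reads were 53.2 times those of control (95% counting interval 40.3 to 71.6). The exons of both genes share 0 bases, and no 100-base stretch of the Gm26869 transcript occurs in another gene. The library kit does not mark strand, so reads of Gm26869 cannot be told apart from unspliced transcripts of Zfp971 that cover the same intron.

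The tested genes around Zfp971 had smaller differences than Zfp971. Zfp931, the next tested gene, lies 33.7 kb downstream and had an FPKM of 1.81 and 2.84 in control, compared with 2.35 and 2.67 in SUV-OE libraries, with overlapping groups. Gm14326 lies 66.0 kb upstream and had 2.93 and 4.18 in the controls and 5.49 and 5.07 with SUV-OE, a log2 fold change of 0.48 (standard error 0.18) that was 0.28 without control replicate 3. Zfp972, another 10.4 kb upstream, had 0.178 and 0.343 in control libraries against 1.37 and 0.846 in SUV-OE, a log2 fold change of 0.73 (standard error 0.21) that rests on 3 and 5 reads against 21 and 13. With limma-voom on the recovered reads the log2 fold change of Zfp972 was 2.09 (standard error 0.61). Its annotated coding sequence holds no finger pattern, so Zfp972 is a zinc finger gene by name only here.

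Gm14325 set the likeness of the promoters against the levels. This KRAB zinc finger gene had an FPKM of 3.53 and 6.86 in control replicates 3 and 4 and of 4.29 and 4.77 in SUV-OE replicates 2 and 3. Its control libraries spanned both SUV-OE libraries and the difference was -0.11 (standard error 0.28). Its promoter is the one 95.4% identical to that of Zfp971, and its level in control was similar to that of Zfp971. Only 41.7% of its 100-base stretches occur in no other gene, and 47.1% are shared with Gm14326. Together Gm14325 and Gm14326 had a ratio of depth-scaled means of 1.21. Without control replicate 3 the difference in Gm14325 was -0.51, and without control replicate 4 it was 0.29. Zfp970, 91.9% identical in its promoter, had 0 and 1 reads in the controls and 9 and 15 with SUV-OE. Gm14403, 91.2% identical, had 0 reads in both control libraries and 6 and 9 in SUV-OE. Gm14322, 90.0% identical, had 0 reads in both control libraries and 1 read in each SUV-OE library. These 3 genes reached at most an FPKM of 0.388 and were not tested.

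**Figure D2:**
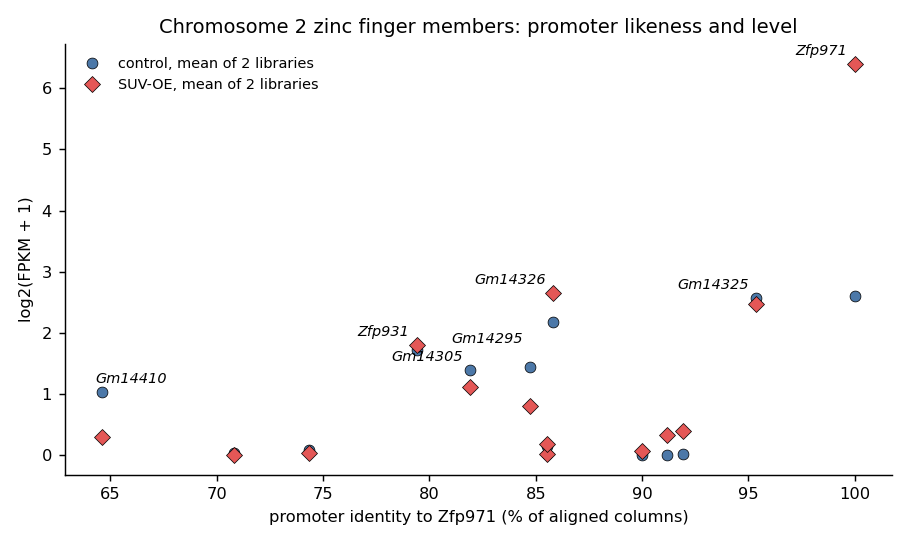
Mean log2(FPKM + 1) of the 2 control libraries (blue circles) and the 2 SUV-OE libraries (red diamonds) against the percent identity of the promoter to that of Zfp971, for the 14 chromosome 2 finger genes with a RefSeq promoter. Zfp971 shows the widest gap between the groups, while Gm14325, at 95.4% identity, has nearly the same level in both.

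Some finger genes of chromosome 2 were lower in SUV-OE. Gm14410, with 9 finger patterns, had an FPKM of 1.29 and 0.816 in control replicates 3 and 4 and of 0.141 and 0.328 in SUV-OE replicates 2 and 3, a log2 fold change of -0.73 (standard error 0.21). Gm14295, with 25 finger patterns, had 1.33 and 2.18 in control, compared with 0.895 and 0.606 in SUV-OE libraries, a log2 fold change of -0.64 (standard error 0.22). In Gm14305, with 14 finger patterns, the values were 1.42 and 1.87 against 1.40 and 0.967. Without control replicate 4 the log2 fold change was -0.42 in Gm14295 and -0.16 in Gm14305, and that of Gm14305 was -0.42 without SUV-OE replicate 2 and -0.14 without SUV-OE replicate 3. With limma-voom on the recovered reads the values were -2.09 in Gm14410, -1.10 in Gm14295 and -0.38 in Gm14305. In none of the 3 did the groups overlap, and none was called. These 3 genes share sequence with other genes, since only 24.8%, 47.2% and 30.8% of their 100-base stretches, in the same order, occur in no other gene. Gm14305 also shares 251 exonic bases with Zfp973 on the same strand. Summed over the 3 genes, there were 220 and 242 reads in control replicates 3 and 4 and 124 and 95 in SUV-OE replicates 2 and 3.

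The processed pseudogene Gm14438 had an FPKM of 1.98 and 2.28 in the controls and 0.903 and 1.26 with SUV-OE. All of its 100-base stretches also occur in another gene. Ppp1r3d, a glycogen-targeting phosphatase subunit, differed little, with a log2 fold change of 0.12 (standard error 0.14). Fam217b, at the far border, differed by 0.38 (standard error 0.13). Over the 12 tested members of chromosome 2 the median log2 fold change was 0.11, beside -0.02 over all tested genes, and it was 0.30 without control replicate 4 and 0.036 without control replicate 3.

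**Figure D3:**
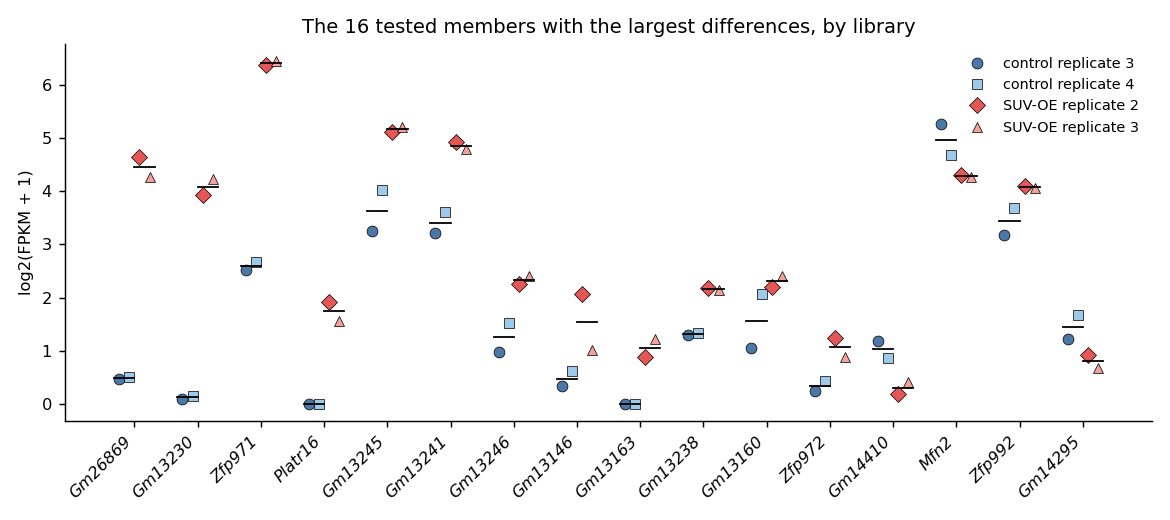
Log2(FPKM + 1) in each of the 4 libraries for the 16 tested members with the largest absolute difference, ordered by its size, with bars at the group means. In Gm26869, Gm13230 and Zfp971 the SUV-OE libraries stand far above control, while in Gm13160 control replicate 4 lies near the SUV-OE libraries.

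On chromosome 4 the largest difference was in a pseudogene. Gm13230 (chr4:145446740-145450888, plus strand), a transcribed unprocessed pseudogene with zinc finger patterns, had an FPKM of 0.0653 and 0.113 in control replicates 3 and 4 and of 14.3 and 17.8 in SUV-OE replicates 2 and 3. These rested on 2 and 3 reads in control against 400 and 499 with SUV-OE. The log2 fold change was 3.96 (standard error 0.16), and the depth-scaled reads were 184 times those of control (95% counting interval 78.5 to 568). With a pseudocount of 0.1 the log2 fold change of Gm13230 was 6.42, and that of Gm26869 was 5.40. Both control libraries were at or under the floor of 3 reads, so the ratio is known only within this wide interval.

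Platr16 (chr4:145410245-145449756, plus strand), a processed transcript named for its association with pluripotency, runs into Gm13230 on the same strand and shares 290 exonic bases with it, 43.6% of its own exons. It had 0 reads in both control libraries and an FPKM of 2.80 and 1.95 in SUV-OE replicates 2 and 3, from 33 and 23 reads. Against a floor of 3 reads per control library, it was at least 9.50-fold higher in SUV-OE. How the authors assigned reads in the shared bases is not given in the sources used here. Together Gm13230 and Platr16 had 0.103 and 0.178 reads per 1000000 of the scaling totals in control, compared with 24.4 and 29.4 in SUV-OE libraries. The groups overlapped in the coding genes tested on either side. Tnfrsf1b, 163.4 kb before Platr16, had an FPKM of 14.5 and 12.1 in control libraries against 14.3 and 16.4 in SUV-OE. Gm13212, a KRAB zinc finger gene with 20 finger patterns that lies 134.3 kb after Gm13230, had 10.1 and 15.8 in control, compared with 14.0 and 15.4 in SUV-OE libraries.

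A unit of 3 neighbouring genes was seen in 3 copies among the members of chromosome 4, and further copies were not searched for. Each copy held a KRAB zinc finger gene or its pseudogene, then a processed pseudogene of 780 bases, then a short processed pseudogene. The short pseudogenes Gm13246 and Gm13163 lie on the minus strand and Gm13245 lies on the plus strand. In order along the chromosome, the copies were Znf41-ps with Gm13238 and Gm13246, Zfp992 with Gm13241 and Gm13245, and Zfp991 with Gm13146 and Gm13163. The gaps were 7.3 and 6.4 kb in the first copy, 5.0 and 4.6 kb in the second and 7.1 and 6.4 kb in the third. The pseudogenes of 780 bases were 97.83% (Gm13241 and Gm13238), 97.45% (Gm13241 and Gm13146) and 98.85% (Gm13238 and Gm13146) identical. Their stretch of 100 bases with the most differing positions is given from the GENCODE M21 transcripts (mm10), with the 5 differing positions in capitals, to show how little sequence separates reads of these copies.
Gm13238, chr4:145837273-145837372, plus strand: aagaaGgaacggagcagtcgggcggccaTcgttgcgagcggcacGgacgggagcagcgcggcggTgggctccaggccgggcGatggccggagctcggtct
Gm13241, chr4:146475386-146475485, plus strand: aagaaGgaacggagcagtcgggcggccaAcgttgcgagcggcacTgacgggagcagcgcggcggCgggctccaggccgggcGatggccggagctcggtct
Gm13146, chr4:147187762-147187861, plus strand: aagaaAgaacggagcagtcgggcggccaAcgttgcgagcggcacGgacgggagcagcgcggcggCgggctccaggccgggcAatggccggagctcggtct

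In all 3 copies the SUV-OE values of both pseudogenes exceeded the control values without overlap, where 25.4% of all tested genes did so. Of these 6 genes Gm13241 was called and the other 5 were not, where 0.815% of all tested genes were called higher. In the copy with Zfp992, Gm13241 had an FPKM of 8.24 and 11.2 in control replicates 3 and 4 and of 29.3 and 26.8 in SUV-OE replicates 2 and 3, a log2 fold change of 1.45 (standard error 0.17). Gm13245 had 8.50 and 15.3 in the controls and 33.6 and 36.1 with SUV-OE, a log2 fold change of 1.53 (standard error 0.27). The difference in Gm13245 was 1.14 without control replicate 3 and 1.92 without control replicate 4. Both genes had SUV-OE libraries well above control, and control replicate 4 above control replicate 3.

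In the copy with Znf41-ps the levels were lower. Gm13238 had an FPKM of 1.45 and 1.52 in control libraries against 3.54 and 3.39 in SUV-OE, a log2 fold change of 0.85 (standard error 0.13). Gm13246 had 0.979 and 1.88 in control, compared with 3.76 and 4.29 in SUV-OE libraries, a log2 fold change of 1.07 (standard error 0.22). In the copy with Zfp991, Gm13146 had 0.264 and 0.532 in the controls and 3.18 and 1.01 with SUV-OE, where the SUV-OE libraries lay far apart. Its log2 fold change of 1.06 (standard error 0.38) was 0.53 without SUV-OE replicate 2. Gm13163 had 0 reads in both control libraries and an FPKM of 0.839 and 1.34 in SUV-OE, from 5 and 8 reads, at least 2.20-fold higher against the floor of 3 reads per library. Gm13163 and Gm13146 entered the fit through their SUV-OE reads alone.

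The zinc finger genes of the same copies differed less. Zfp992, with 11 finger patterns, had an FPKM of 8.08 and 11.8 in control libraries against 16.2 and 15.7 in SUV-OE, a log2 fold change of 0.65 (standard error 0.19) with groups that did not overlap, and it was 0.40 without control replicate 3. Zfp991, also with 11 finger patterns, had 12.6 and 19.6 in control, compared with 16.4 and 17.5 in SUV-OE libraries, a log2 fold change of 0.10 (standard error 0.22). Znf41-ps had 9.88 and 13.4 in the controls and 11.0 and 12.8 with SUV-OE, a log2 fold change of 0.04 (standard error 0.18). In Zfp991 and Znf41-ps the control libraries spanned the SUV-OE libraries.

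Reads may be shared among copies, so reads were also summed over them. Only 40.4% of the 100-base stretches of Gm13241, 32.2% of those of Gm13238 and 48.2% of those of Gm13146 occur in no other gene. Summed, these 3 pseudogenes had 7.76 and 10.4 reads per 1000000 in the controls and 28.1 and 24.3 with SUV-OE, and the ratio of means was 2.89. Gm13245, Gm13246 and Gm13163 together had 2.52 and 4.56 against 10.2 and 11.2, a ratio of 3.02. Zfp991 and Znf41-ps together had 60.6 and 89.7 against 74.3 and 82.0, a ratio of 1.04. Gm13241 also shares 9.69% of its stretches with Cdv3 on chromosome 9, which had an FPKM of 25.5 and 25.6 in control libraries against 22.9 and 23.1 in SUV-OE.

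**Figure D4:**
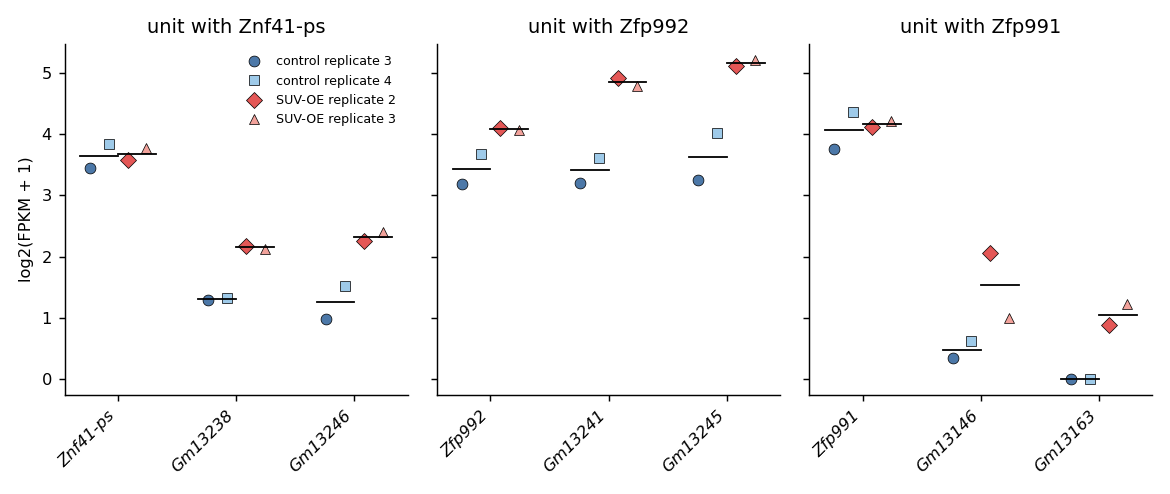
Log2(FPKM + 1) in each library for the 3 genes of each copy of the repeated unit, in the order zinc finger gene or its pseudogene, pseudogene of 780 bases and short pseudogene, with bars at the group means. The SUV-OE libraries lie above both control libraries in the 6 pseudogenes to the right of each panel and in Zfp992, while Znf41-ps and Zfp991 overlap between the groups.

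Other members of chromosome 4 were lower in SUV-OE or near 0. Mfn2, which encodes a protein of mitochondrial fusion, had an FPKM of 37.3 and 24.6 in control replicates 3 and 4 and of 18.7 and 18.2 in SUV-OE replicates 2 and 3. Its log2 fold change of -0.69 (standard error 0.21) was -0.40 without control replicate 3. Zfp984, a KRAB zinc finger gene and the finger gene with the highest level in control on either chromosome, had 19.6 and 29.4 in control, compared with 17.7 and 19.5 in SUV-OE libraries, a log2 fold change of -0.36 (standard error 0.21). Without control replicate 4 it was -0.077, and without control replicate 3 it was -0.64. The lincRNA gene Gm20707 overlaps 282 exonic bases of Zfp984 on the same strand and had 2.84 and 4.81 in the controls and 2.26 and 2.48 with SUV-OE. Zfp993, with the KRAB pattern and 2 finger patterns, had 5.56 and 7.34 in control libraries against 4.33 and 4.01 in SUV-OE, a log2 fold change of -0.52 (standard error 0.16). Without control replicate 4 the value was -0.19 in Gm20707 and -0.34 in Zfp993, and without control replicate 3 it was -0.78 in Gm20707. In these 4 genes the groups did not overlap, and none was called.

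Zfp933, a KRAB zinc finger gene with no 100-base stretch in another gene, had an FPKM of 1.85 and 2.83 in control, compared with 3.05 and 3.58 in SUV-OE libraries. Gm13160, a processed pseudogene, had 1.07 and 3.21 in the controls and 3.60 and 4.31 with SUV-OE. The log2 fold changes were 0.38 (standard error 0.19) for Zfp933 and 0.74 (standard error 0.36) for Gm13160. Without control replicate 3 they were 0.17 and 0.23, and without control replicate 4 they were 0.59 and 1.26, in the same order. The lincRNA gene Gm13166 had 0.655 in control replicate 3 but 4.03 in control replicate 4, beside 3.11 and 2.95 in SUV-OE, so its log2 fold change of 0.48 was smaller than its standard error of 0.53 and was -0.32 without control replicate 3 and 1.28 without control replicate 4. The processed pseudogene Gm13226 had 0.254 and 2.20 in control libraries against 0.697 and 0.696 in SUV-OE. Rps19-ps3, with a log2 fold change of -0.28 (standard error 0.15), and Gm13156, with 0.33 (standard error 0.23), rested on at most 20 reads per library, and Gm13156 was at 0.12 without control replicate 3 and at 0.54 without control replicate 4. Miip (log2 fold change -0.0023, standard error 0.15) had 12.1 and 10.3 in control, compared with 12.4 and 10.1 in SUV-OE libraries. For Fv1 the log2 fold change was -0.09 (standard error 0.21), and for the processed pseudogene Gm13237, with 6.90% of its stretches in no other gene, it was -0.16 (standard error 0.17). The median over the 26 tested members of chromosome 4 was 0.27, and it was 0.52 without control replicate 4 and 0.11 without control replicate 3. It was 0.049 over the protein-coding members, 0.10 with no filter on low values and 0.48 with limma-voom on the recovered reads.

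Medians by biotype are given as a description of the tested members alone. The median log2 fold change was 0.10 in the 20 tested protein-coding members, of which 1, Zfp971, was called, where 0.815% of all tested genes were called higher. It was 0.79 in the 14 tested pseudogenes, of which 2 were called and 4 passed the filter through SUV-OE alone. It was 1.11 in the 4 remaining non-coding members, of which 2 were called and 2 passed the filter through SUV-OE alone. The 5 tested finger genes of chromosome 4 had log2 fold changes from -0.36 to 0.65, with a median of 0.20. The 7 of chromosome 2 had a median of -0.11 and the range from -0.73 to 3.81.

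**Figure D5:**
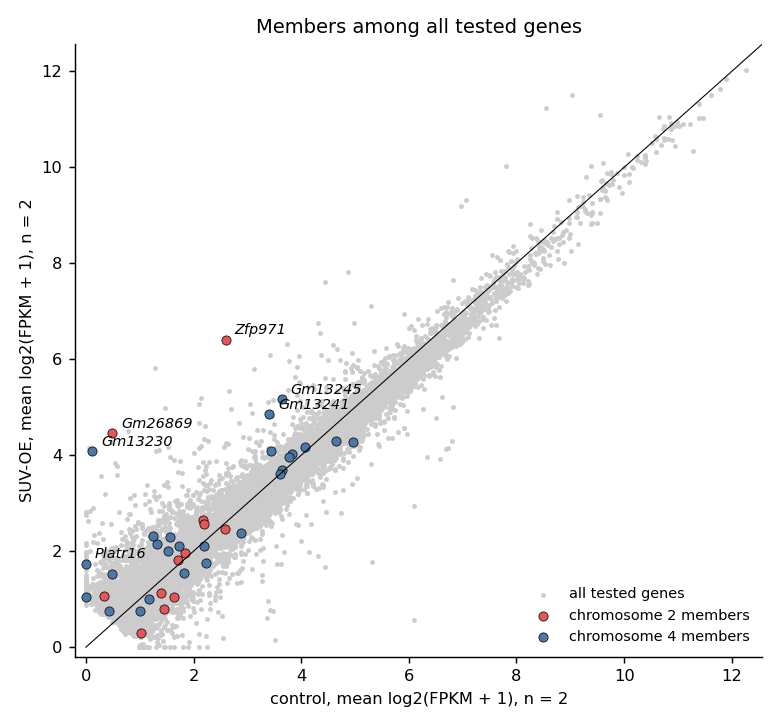
Mean log2(FPKM + 1) of the 2 SUV-OE libraries against that of the 2 control libraries for all 13736 tested genes (grey) and the 38 tested members (red, chromosome 2, blue, chromosome 4), with the line of equal levels. Zfp971, Gm26869 and Gm13230 stand well above the line and most other members lie near it.

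The other 65 members were expressed at a trace and were not tested. Their highest FPKM in any library was 0.855, and 36 of them had under 10 reads over the 4 libraries. Summed over the 65 genes, there were 205 and 253 reads in control replicates 3 and 4 and 374 and 383 in SUV-OE replicates 2 and 3. No read was found in control, with at least 1 in SUV-OE, in 17 of them, and the opposite held in 2 (Gm14414 and Zfp986). In the whole table, tested genes included, 1355 genes had no control read and 805 had no SUV-OE read. The mean FPKM was higher in SUV-OE in 48 of the 65, among them 17 of the 22 finger genes. Of all 13736 tested genes, 6458 had a positive log2 fold change. The share among other untested genes was not counted, so nothing is read from these counts. Zfp985 had 0 and 2 reads in the controls and 10 and 8 with SUV-OE, and Zfp981 had 11 and 1 in the controls and 34 and 17 with SUV-OE. The depth-scaled ratio was 4.35 in Zfp981 (95% counting interval 2.29 to 8.96) and 9.20 in Zfp985 (2.20 to 81.8), from few reads. The untested member with the most reads, Zfp831, had 66 and 58 in the controls and 71 and 77 with SUV-OE. A count of 0 in a library allows up to 3 reads.

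The control libraries differed from each other in these genes. Control replicate 4 was above control replicate 3 in 31 of the 38 tested members (81.6%), against 49.9% of all tested genes. All members together had 599 and 658 depth-scaled reads per 1000000 in control replicates 3 and 4, from 11648 and 11100 reads. In SUV-OE replicates 2 and 3 they had 894 and 898, from 15869 and 15967 reads. On chromosome 4 the reads were 10233 and 9578 in the controls and 9884 and 10190 with SUV-OE. On chromosome 2 they were 1415 and 1522 against 5985 and 5777. Of these, Zfp971 held 198 and 195 against 3099 and 3286, and Gm26869 held 26 and 25 against 1501 and 1150. The median log2 difference between the control libraries was 0.31 in the members and 0.00 over all tested genes, while between SUV-OE replicates 3 and 2 it was 0.03. Genes outside the windows with both the finger and KRAB patterns likewise had control replicate 4 higher in 109 of 130 tested genes (83.8%) and a median of 0.25. Among the 288 tested genes elsewhere named Zfp or Znf it was higher in 171 (59.4%), with a median of 0.09. What sets the control libraries apart was not tested.

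The fold changes of zinc finger genes elsewhere were also examined. Of 130 tested genes outside the windows with both patterns, 1 (Zfp951) was called higher and 1 (Gm14139) lower, and the median log2 fold change was 0.14. SUV-OE exceeded control without overlap in 57 of the 130 (43.8%) and fell short of it in 11 (8.46%), where 25.4% and 28.4% of all tested genes did so. Of 288 tested protein-coding genes outside the windows whose symbol begins with Zfp or Znf, Zfp951 was the only one called, and the median was 0.10. Zfp951 on chromosome 5, which had an FPKM of 0.652 and 0.902 in control libraries against 4.18 and 4.22 in SUV-OE, differed by 1.55 on the log2 scale (standard error 0.15). It was the largest of the 288, of which 3 reached a log2 fold change of 1. Gm14139, on chromosome 2 outside the window, had an FPKM of 3.18 and 3.43 in control libraries against 0.424 and 0.0326 in SUV-OE. It differed by -1.83 on the log2 scale (standard error 0.21), from 107 and 100 reads against 13 and 1.

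Genes that act with KRAB zinc finger proteins were followed by a list of 36 co-repressor and heterochromatin genes, all of which were tested. Suv39h1 itself was called higher, and 0 of the other 35 were called by limma. Atf7ip, the partner of Setdb1, had the largest difference among the 35, with an FPKM of 5.90 and 5.13 in control, compared with 10.5 and 9.45 in SUV-OE libraries and a log2 fold change of 0.75 (standard error 0.13). Fam208a, a subunit of the HUSH complex, had 6.86 and 7.98 in the controls and 11.6 and 9.69 with SUV-OE, a log2 fold change of 0.47 (standard error 0.14). Uhrf1, which couples H3K9 methylation to DNA methylation, had 117 and 90.0 in control libraries against 70.4 and 80.5 in SUV-OE, a log2 fold change of -0.44 (standard error 0.18) that was -0.25 without control replicate 3. The scaffold Trim28 had 119 and 84.9 in control, compared with 95.5 and 91.1 in SUV-OE libraries, with overlapping groups. Setdb1 had 10.6 and 11.4 in the controls and 12.7 and 11.8 with SUV-OE. The median over the 35 was -0.11, beside -0.02 over all tested genes. Both SUV-OE libraries were above control in 7 of the 35 and below in 14, where 25.4% and 28.4% of all tested genes were.

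The tested genes nearest the borders of the windows were not called in the reported fit. On chromosome 2, the first tested gene inside was Gm14438 (log2 fold change -0.59, and -0.93 with a pseudocount of 0.1) and the last was Fam217b (0.38). The nearest outside were Prelid3b before the window (-0.58) and Gm14292 after it (0.04). On chromosome 4, Tnfrsf1b (0.20) and Gm13156 (0.33) were the first and last inside, and Vps13d (0.16) and Plod1 (-0.37) were the nearest outside. Tnfrsf1b was at 0.076 without control replicate 4 and at 0.32 without control replicate 3.

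Markers of other cells differed between the groups and were set beside these values. The 6 neutrophil genes all had both SUV-OE libraries above control, 1 was called higher, and their summed FPKM was 720.2 and 2309.9 in control libraries against 6492 and 7913 in SUV-OE. The 8 B-lymphoid genes had both SUV-OE libraries above control in 7, with sums of 18.5 to 27.6 in control and 36.4 to 81.2 in SUV-OE. The 6 erythroid genes were higher in 3, with sums of 12 to 113 in control and 57.8 to 82.2 in SUV-OE. The 6 endothelial genes had 1 tested gene, which was called higher, and sums of 17.2 to 24.0 in control and 65.1 to 72.0 in SUV-OE. Of the 6 T and NK genes 2 were tested, and both SUV-OE libraries were below control in 1. The sums of the 6 were 74.8 to 114 in control and 76.7 to 84.1 in SUV-OE. The 6 markers of c-Kit+ leukemic cells (Kit, Cd34, Hoxa9, Meis1, Mpo and Flt3) summed to 473 to 498 in control and 421 to 459 in SUV-OE, with 2 higher and 3 lower. None of the markers was at 0 in every library. The part of these cells in the values of the members was not tested.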

How the data were processed

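RNA-Seq libraries (TruSeq RNA v2, per the labels) of 2 control and 2 SUV-OE samples were used. According to the study's methods, the authors aligned paired-end reads to mm10 with TopHat2 and computed FPKM with Cufflinks, and the submitters' processing notes also name CASAVA 1.8. A single FPKM per gene was deposited for each library, and the annotation release and the treatment of reads with several matches are not given in the sources used here. Genes were placed by GENCODE M21, which matched all but 114 of 23552 genes. The rule for members, the gene lists and the named genes were chosen with earlier results of these data known.

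The 13736 genes whose mean FPKM reached 0.5 were compared as log2(FPKM + 1) with limma 3.58.1 in R 4.3.3, with the group as the only term, an intensity trend and Benjamini-Hochberg adjustment over all tested genes. Named members were the 30 tested members with the largest absolute log2 fold change and those reaching an FPKM of 5, with the border genes and the co-repressor genes of the largest change. Zfp951, Gm14139, Cdv3 and some members outside this rule were named after their values were seen.

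Reads were recovered as whole multiples of the FPKM of 1 read at the exon length (tolerance 0.01), which held for 78.9% of matched genes and for all 103 members. Estimates by Cufflinks need not be whole reads, so the step that made the deposited values is uncertain. With the scaling totals of 16873770 to 19453058 reads that the FPKM imply, 3 reads on 1 kb gave an FPKM of 0.154 to 0.178. Intervals of read ratios are exact conditional binomial intervals at 95% and, like the floor of 3 reads, cover counting error only. Shared sequence was counted as 100-base stretches of annotated transcripts that occur in a transcript of another gene. Promoter identity came from global alignment with Biopython 1.88. The tests and the recovery were tested on simulated data. Figures were drawn with matplotlib 3.10.9.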

Additional observations from a re-analysis of the deposited data

How the results depend on the processing

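No paired analysis was possible because control and SUV-OE have just 1 replicate number in common. The count of members called higher, 5 in the reported fit, was 3 with a pseudocount of 0.1, 0 with no filter on low values (4177 genes at an unadjusted p-value under 0.05 by limma), 3 without members whose exons overlap another gene and 1 among protein-coding members. It stayed at 5 with a mean FPKM of at least 1 and under both other scalings, and was 4 without the intensity trend (Gm13241 not called) and 6 with limma-voom on recovered reads (Gm13245 also called). Gm13230, Gm26869 and Zfp971 were the 3 called with a pseudocount of 0.1. Over all tested genes, 112 were called higher and 56 lower. With a pseudocount of 0.1, 74 were called higher. With no filter, 0 were called in either direction and 0 co-repressor genes were called. With limma-voom, 634 were called higher and 138 lower. Leaving out each library in turn gave 0 to 0 calls for the members higher, for all genes in either direction and for the co-repressor genes, and the median log2 fold change ranged from 0.036 to 0.30 for chromosome 2 and from 0.11 to 0.52 for chromosome 4. The median for chromosome 2, 0.11 as reported, was 0.26 with limma-voom and, in an alternative chosen after seeing the data, 0.56 for members with at least 50% of their 100-base stretches in no other gene. It was 0.032 with no filter and 0.0041 with quantile normalization. The planned count of such stretches over the genome was not run, since no genome was used here, and transcripts took its place. Counts of members called lower were 0 throughout, by limma and limma-voom. Of 366 log2 fold changes of 34 named members under alternatives, 355 kept the sign of the reported value. The 11 others belonged to 7 members near 0 or with wide spread (Gm13166, Gm13212, Gm13226, Gm14325, Miip, Zfp991 and Znf41-ps). The cause of these shifts was not tested. With 2 libraries a group and under 10 reads on 36 of the members, small differences could be missed. The size that could be detected was not estimated.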
